A study of Mus musculus with 14 samples.

Results

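The genes described here encode 9 neuronal RNA-binding proteins: the cytoplasmic polyadenylation element binding proteins Cpeb1, Cpeb2, Cpeb3 and Cpeb4, the Pumilio protein Pum2, and the Elav-like (Hu) proteins Elavl1, Elavl2, Elavl3 and Elavl4. They were picked from the table by their gene symbols, with no measured value in the rule, and all 9 were found among the 23412 genes of the count table and were tested in every comparison. Counts came from the cortex of control mice, labelled Rpl22flox/flox;CamKCre+, and of Fmr1 knock-out (KO) mice, labelled Fmr1X-Y; Rpl22flox/flox;CamKCre+. Both genotypes therefore carried the floxed Rpl22 allele, which Cre recombines to tag ribosomes, and the CamK-driven Cre, a promoter used to reach excitatory forebrain neurons. The protocols in the labels name no step that isolates the tagged ribosomes from the lysate, so the counts are not known to be limited to Cre-expressing cells. Age was not given in the labels. RNA was sequenced from 4 control mice (1, 3, 6 and 8) and from 4 KO mice (2, 4, 5 and 7). Footprints, the mRNA fragments that ribosomes protect from nuclease, were sequenced from 3 control mice (1, 3 and 9) and from 3 KO mice (2, 4 and 10).

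CPEB proteins bind U-rich cytoplasmic polyadenylation elements in the 3′ UTRs of mRNAs and recruit enzymes that shorten or lengthen the poly(A) tail, which represses or permits translation. Pumilio proteins bind their own short 3′ UTR element and recruit the CCR4-NOT deadenylase complex. Elav-like proteins bind U-rich and AU-rich elements and are best known for stabilising mRNAs. FMRP, the product of Fmr1, is itself a neuronal RNA-binding protein that represses translation, and it is found in the same kinds of transport granules as several of these proteins.

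Totals per library ranged from 8847547 to 11371851 counts in RNA and from 4124065 to 6033030 in footprints. Fmr1 RNA was at 26.1% of control in KO mice and Fmr1 footprints at 6.56%, with no overlap between genotypes. The RNA libraries of KO mice 2, 4 and 7 stood very close to each other, with 1.18 to 1.32 as the pairwise chi-square divided by its degrees of freedom, whereas their pairs with KO mouse 5 gave 5.64 to 6.02. Control RNA pairs ranged from 1.99 to 11.8, and control mouse 8 stood farthest from control mice 1 and 3, at 10.6 and 11.8. Leaving out 1 mouse moved the 1001 RNA calls over all genes to between 356 (without KO mouse 4) and 1763 (without control mouse 8). Without control mouse 8, 1 of the 9 genes was called, Cpeb1. The labels number KO mice 2, 4 and 7 as separate mice, and whether they are separate animals was not tested. Footprint libraries of 1 genotype were as close, at 1.15 to 1.42, whereas footprint pairs between genotypes gave 4.83 to 5.92. If close libraries are not separate animals, n is smaller than given and the p-values measure technical spread. A fit in which KO mice 2, 4 and 7 count as 1 summed RNA library, and control mice 1 and 3 (1.99) as another, called the close libraries summed, left 36 RNA calls over all genes in place of 1001. Markers of excitatory neurons, summed over 10 genes, were at 2760 to 3030 CPM (counts scaled to a common library total) in control RNA and 3420 to 3700 in KO RNA. Of the 10 genes, 2 were called higher, where 3.53% of all genes were. Camk2a, 1 of the 10, had mean RNA of 467 CPM in control and 786 CPM in KO mice, a large part of the difference in the sum. Summed oligodendrocyte markers were at 5170 to 5690 CPM in control and 4580 to 4920 in KO RNA, and summed hypothalamic markers at 42.7 to 78.1 and 22.9 to 26.8 CPM. Called lower were 1 of 10 oligodendrocyte and 4 of 6 tested hypothalamic genes, where 3.88% of all genes were. Inhibitory neuron, astrocyte, microglia, endothelial, choroid plexus and striatal sums overlapped between genotypes in RNA, and no marker was at 0 in every library. In footprints, the excitatory, astrocyte and microglia sums overlapped. Footprint sums of inhibitory neuron (2520 to 2620 CPM in control, 2650 to 2710 in KO), striatal (1390 to 1430 and 1560 to 1620) and endothelial markers (436 to 455 and 473 to 484) were higher in KO mice. Those of oligodendrocyte (8920 to 9080 and 8710 to 8760), choroid plexus (17.4 to 22 and 8.54 to 14.1) and hypothalamic markers (113 to 123 and 42.9 to 48.8) were lower. The part of these shifts in the results below was not tested.

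In RNA, 1 of the 9 genes passed the test between genotypes, Cpeb1, which was higher in KO cortex. Of all 13507 genes tested, 7.41% were called, 3.53% higher and 3.88% lower, so 1 call among 9 genes is near the background. The log2 fold change was above 0 for 8 of the 9 genes, with a median of 0.12 (all genes, -0.001). Footprints gave 2 calls, Cpeb4 lower and Elavl3 higher, where 25.5% of 12158 genes were called, 11.9% higher and 13.6% lower. Relative to RNA, footprints fell for 1 gene, Cpeb4, where 7.81% of 12145 genes were called, 3.4% higher and 4.41% lower. These counts use edgeR's quasi-likelihood F test with Benjamini-Hochberg adjustment over all genes tested and a threshold of 0.05. In bulk cortex, fewer cells of a type and less RNA per cell cannot be told apart.

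Cpeb1, the founding member of the CPEB family, gave the single RNA call, and its promoter is shown for that reason beside that of Cpeb4, whose RNA did not pass the test while its footprints did. Both windows run 5′ to 3′ on the gene's strand from 250 bases before to 50 bases after the RefSeq start, in build GRCm38.p6, at chr7:81454709-81455008 (minus strand) for Cpeb1 and chr11:31870690-31870989 (plus strand) for Cpeb4. Capitals mark GC boxes (GGGCGG, either strand) and the half-site of the cAMP response element (TGACG, either strand), and GC boxes that adjoin run together.
Cpeb1: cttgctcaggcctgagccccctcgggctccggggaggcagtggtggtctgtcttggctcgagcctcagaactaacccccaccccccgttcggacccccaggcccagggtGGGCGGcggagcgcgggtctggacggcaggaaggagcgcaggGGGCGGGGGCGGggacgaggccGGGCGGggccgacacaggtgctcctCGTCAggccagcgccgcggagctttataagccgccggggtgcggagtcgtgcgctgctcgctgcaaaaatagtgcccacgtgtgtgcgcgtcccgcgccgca
Cpeb4: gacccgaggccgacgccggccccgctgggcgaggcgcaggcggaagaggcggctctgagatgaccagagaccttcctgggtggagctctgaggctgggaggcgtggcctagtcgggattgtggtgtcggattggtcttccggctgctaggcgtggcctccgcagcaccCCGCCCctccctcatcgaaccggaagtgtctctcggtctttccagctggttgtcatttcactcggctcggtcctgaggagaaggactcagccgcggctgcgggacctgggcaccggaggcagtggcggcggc
The Cpeb1 window held 4 GC boxes and 1 TGACG, and the Cpeb4 window 1 GC box and no TGACG. GC boxes were present in 35.9% and TGACG in 20.9% of 32544 mouse promoter windows of the same length. The GC content was 72.7% for Cpeb1 and 68.3% for Cpeb4, against a median of 53% over these windows. Searched on both strands, the Cpeb1 window also held 1 E-box (CACGTG, in 7.17% of windows) and 1 TATAAA (in 13.6%, here on the strand opposite to the gene), and neither was found in the Cpeb4 window. The full cAMP response element (TGACGTCA) was in neither. These are matches of letters, and no factor was measured.

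Cpeb1 RNA was at 20.2, 22.2, 20.1 and 25.3 CPM in control mice 1, 3, 6 and 8. In KO mice 2, 4, 5 and 7 it was at 34.3, 32.8, 22.9 and 34.5 CPM. KO mice 2, 4 and 7 lay above every control, whereas KO mouse 5 lay within the control range. The means were 21.9 ± 2.41 CPM in control and 31.1 ± 5.53 CPM in KO cortex (each SD, n = 4), and the log2 fold change was 0.51 ± 0.12 (SE, edgeR adjusted p = 0.0215). An exact two-sided permutation test on the CPM means gave p = 0.0571, and the smallest p of 4 against 4 libraries is 0.0286. The call was lost with the close libraries summed (log2 fold change 0.39, edgeR adjusted p = 0.365), in mice 5 to 8 alone (0.34, 0.414), and without any 1 of mice 1, 2, 4, 6 or 7 (adjusted p between 0.0655 and 0.0793). It was kept in mice 1 to 4 alone (log2 fold change 0.67, edgeR adjusted p = 1.47e-05) and without KO mouse 5 (0.63, 0.00128). In the exon columns, a second and larger count that the table gives for each RNA library, it was kept at a smaller log2 fold change of 0.32 ± 0.070 (SE, edgeR adjusted p = 0.0146). By title prefix, the set that the labels show 2 or 4 libraries to share, the KO level was 170%, 148% and 126% of control. Cpeb1 footprints rested on 82 to 129 counts per library, at 20.6 ± 1.99 CPM (SD, n = 3) in control and 23 ± 2.46 CPM (SD, n = 3) in KO mice, and did not pass the test (log2 fold change 0.15 ± 0.13 SE, edgeR adjusted p = 0.425).

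Cpeb4, a CPEB that regulates poly(A) tails of neuronal mRNAs, had fewer footprints in KO cortex, while its RNA did not pass the test. Its footprints were at 120, 117 and 101 CPM in control mice 1, 3 and 9 and at 93.4, 98.5 and 93 CPM in KO mice 2, 4 and 10. Every KO library lay below every control, and control mouse 9 lay nearest to the KO libraries. The means were 112 ± 10.5 CPM in control and 95 ± 3.08 CPM in KO cortex (each SD, n = 3), and the log2 fold change was -0.24 ± 0.061 (SE, edgeR adjusted p = 0.00146). The exact two-sided permutation test gave p = 0.1, the smallest that 3 against 3 libraries allow, and 19.2% of all genes had KO footprints wholly below control. The KO level was 77.8%, 92.1% and 84.2% of control within the 3 title prefixes. Cpeb4 RNA was at 164, 160, 161 and 165 CPM in control and 172, 172, 173 and 164 CPM in KO mice, with KO mouse 7 inside the control range. Its RNA log2 fold change was 0.06 ± 0.048 (SE, edgeR adjusted p = 0.461).

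Translational efficiency (TE), the footprint level relative to RNA and tested as the interaction of genotype and assay over 14 libraries, fell for Cpeb4 by 0.31 on the log2 scale (SE 0.084, edgeR adjusted p = 0.0241). In the mice measured in both assays, the Cpeb4 footprint to RNA ratio was 0.732 and 0.728 in control mice 1 and 3 and 0.545 and 0.572 in KO mice 2 and 4. The control pair lay above the KO pair, as for 27.4% of all genes in these 4 mice, with another 26.2% wholly higher in KO. Of the 9 genes, 5 had KO ratios wholly below control (Cpeb1, Cpeb3, Cpeb4, Elavl1 and Elavl3) and none wholly above. For Elavl3 the direction differed between fits, and none passed the test. Its TE difference over all 14 libraries was 0.02 ± 0.093 (SE, edgeR adjusted p = 0.931) without a replicate block. With the mouse as a block it was -0.15 ± 0.081 (SE, edgeR adjusted p = 0.222). Mice 5 to 10 were each in 1 assay only, so the blocked difference rests on mice 1 to 4. In those mice alone the blocked value was also -0.15 (edgeR adjusted p = 0.216). The RNA log2 fold change of Elavl3 was 0.25 in mice 1 to 4 and -0.01 in mice 5 to 8. An unblocked TE fit of mice 1 to 4 was not run. With the mouse as a replicate block, the Cpeb4 TE difference was -0.40 (edgeR adjusted p = 0.000221), and TE calls over all genes numbered 1810 in place of 949. In mice 1 to 4 alone with the block, the values were -0.40 (edgeR adjusted p = 0.000196) and 1868. The block and the restriction to mice 1 to 4 thus came together, and their separate parts were not tested. The TE call was lost with the close RNA libraries summed (-0.33, edgeR adjusted p = 0.0681), with plain library sizes (-0.25, 0.0662), and without any 1 of mice 1, 2, 3, 4 or 10 (adjusted p between 0.0675 and 0.112).

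Cpeb2 and Cpeb3, the remaining CPEB proteins, had positive RNA values that did not pass the test. Cpeb3, known for prion-like regulation of synaptic mRNAs, was at 58.3, 55.7, 56.5 and 51.1 CPM in control RNA and at 66.9, 63.8, 62.7 and 62.7 CPM in KO RNA. No library overlapped, as for 7.1% of all genes, with another 7.97% wholly lower in KO (exact two-sided permutation test, p = 0.0286). Its RNA log2 fold change was 0.21 ± 0.064 (SE, edgeR adjusted p = 0.0602), and the KO level was 115%, 115% and 117% of control by title prefix. The gene passed the threshold with DESeq2 (adjusted p = 0.0498), without KO mouse 5 (edgeR adjusted p = 0.0421) and in mice 1 to 4 (0.0335). Cpeb2 RNA was at 50.3 to 63 CPM in control and 62.2 to 84 CPM in KO mice, with the highest value in KO mouse 5. Its RNA log2 fold change was 0.27 ± 0.095 (SE, edgeR adjusted p = 0.0955). Footprints of both lay within a narrow range, at 82.3 ± 6.12 (SD, n = 3) and 81.3 ± 5.08 CPM (SD, n = 3) for Cpeb2 and 83 ± 1.91 (SD, n = 3) and 82.6 ± 5.12 CPM (SD, n = 3) for Cpeb3. TE differences of Cpeb1, Cpeb2 and Cpeb3 were -0.37 ± 0.20, -0.29 ± 0.13 and -0.22 ± 0.092 (SE), and none passed the test (edgeR adjusted p between 0.141 and 0.287).

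Pum2, the Pumilio protein of the set, did not pass the test in either assay, and the genotypes overlapped in both. Its footprints were at 98.9, 98.6 and 101 CPM in control and 104, 99.2 and 104 CPM in KO mice (log2 fold change 0.04 ± 0.059 SE, edgeR adjusted p = 0.685). Pum2 RNA was at 330, 333, 335 and 310 CPM in control and 333, 348, 401 and 337 CPM in KO mice. KO mouse 5 held the highest value, and the others lay close together. The RNA log2 fold change was 0.12 ± 0.063 (SE, edgeR adjusted p = 0.282). How reads shared by similar members of a family were counted is not given in the sources used here.

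Elavl3 (HuC), a Hu protein of neurons, was the only one of the 4 Elav-like genes that passed a test. Its footprints were at 197, 193 and 182 CPM in control mice 1, 3 and 9 and at 205, 215 and 209 CPM in KO mice 2, 4 and 10. The groups did not overlap, as for 18.1% of all genes with KO footprints wholly above control. The means were 191 ± 7.44 CPM in control and 210 ± 4.96 CPM in KO cortex (each SD, n = 3), and the log2 fold change was 0.14 ± 0.043 (SE, edgeR adjusted p = 0.00908). The exact two-sided permutation test gave p = 0.1. The call was lost with DESeq2 (adjusted p = 0.0748), in a single edgeR fit over all 14 libraries (adjusted p = 0.225), and without KO mouse 4 (0.0639) or control mouse 9 (0.0993). Elavl3 RNA was at 89.8, 89.2, 107 and 106 CPM in control mice 1, 3, 6 and 8 and at 108, 104, 111 and 99.6 CPM in KO mice 2, 4, 5 and 7. Control mice 6 and 8 lay among the KO libraries, and the KO level was 120% and 117% of control in the title prefixes of mice 1 to 4 and 98.9% in that of mice 5 to 8. Its RNA log2 fold change was 0.11 ± 0.070 (SE, edgeR adjusted p = 0.369). In mice 1 to 4 alone it was 0.25 ± 0.057 (SE, edgeR adjusted p = 0.00182).

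Elavl1 (HuR), the Hu protein made in most cell types, had RNA at 53.7, 49.3, 52.7 and 53.4 CPM in control and 54.9, 55.5, 65.8 and 59.6 CPM in KO mice. The groups did not overlap (exact two-sided permutation test, p = 0.0286), as for the 7.1% of all genes above, and the log2 fold change of 0.17 ± 0.073 (SE) missed the threshold (edgeR adjusted p = 0.167). Elavl1 footprints were at 160 ± 3.39 CPM (SD, n = 3) in control and 160 ± 1.12 CPM (SD, n = 3) in KO mice. Elavl2 (HuB) and Elavl4 (HuD), which with Elavl3 form the neuronal Hu proteins, overlapped between genotypes in both assays. Elavl2 RNA ranged from 63 to 68.9 CPM in control and 62.1 to 76.9 CPM in KO mice, and its footprints from 130 to 140 and 127 to 143 CPM. Elavl4 RNA ranged from 84.4 to 107 CPM in control and 78.6 to 97.4 CPM in KO mice, and its footprints from 156 to 163 and 157 to 170 CPM. Its RNA log2 fold change of -0.03 ± 0.083 (SE, edgeR adjusted p = 0.856) was the single negative RNA value of the 9 genes. TE differences of the 4 Elav-like genes lay between -0.18 and 0.04, and none passed the test (edgeR adjusted p between 0.227 and 0.931).

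**Figure D1:**
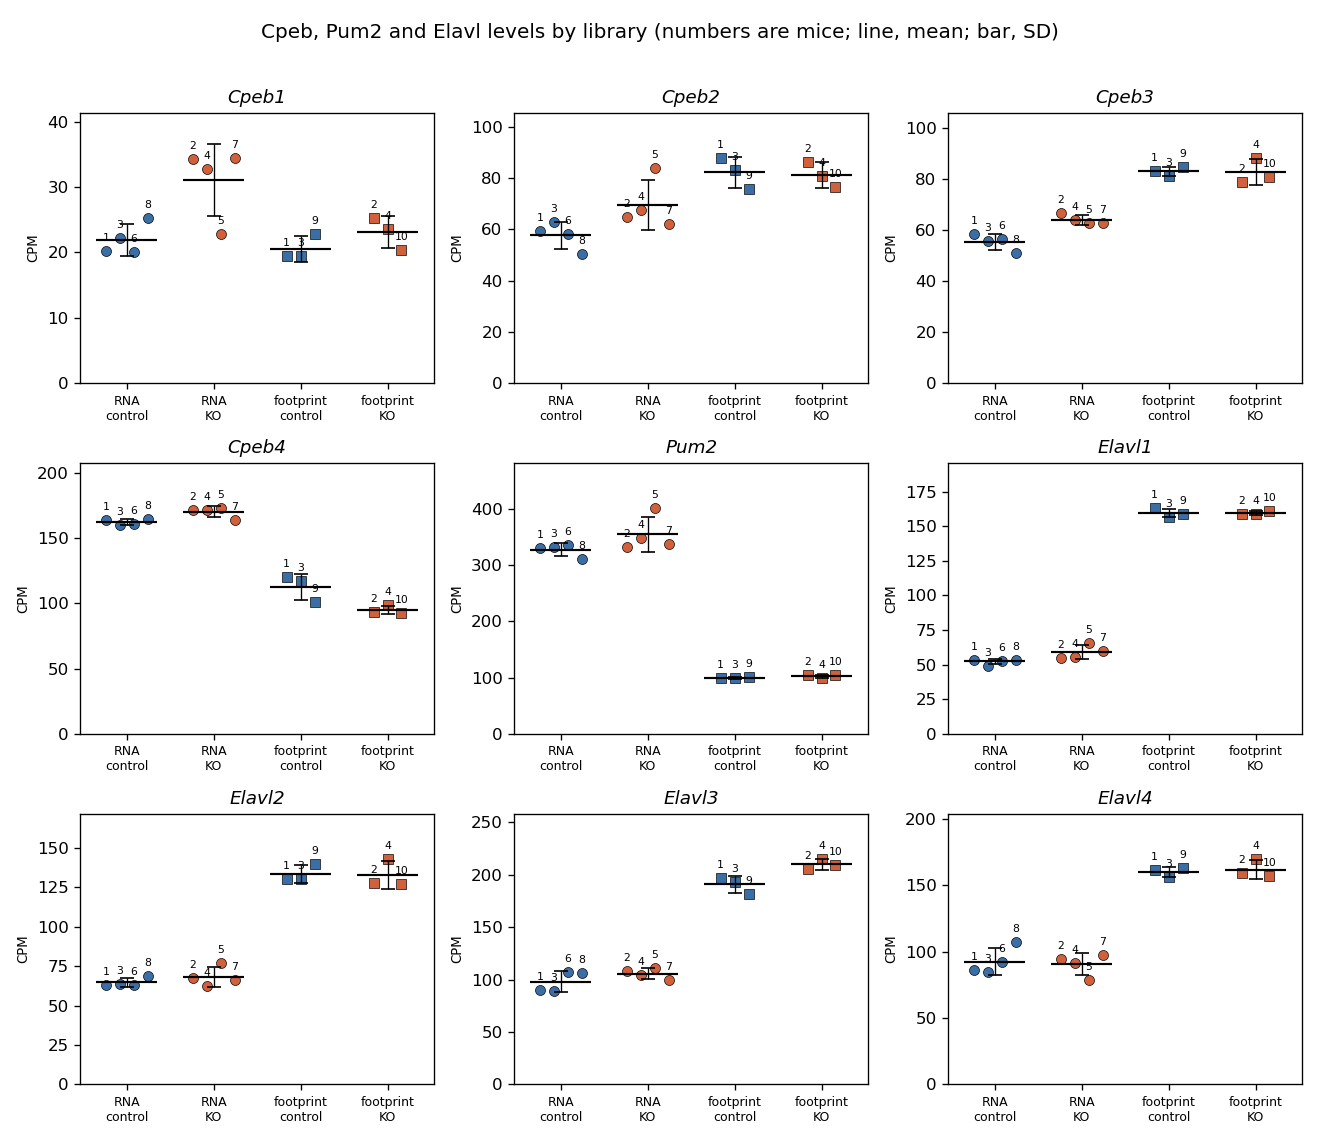
RNA and footprint levels in CPM (y axes, linear from 0) of each of the 9 genes by genotype and assay, with 1 point per library numbered by mouse, a line at the group mean and a bar for the SD. KO mouse 5 lies among the controls for Cpeb1 RNA (22.9 CPM), the 3 KO footprint libraries of Cpeb4 (93 to 98.5 CPM) lie below all controls, and those of Elavl3 (205 to 215 CPM) lie above.

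**Figure D2:**
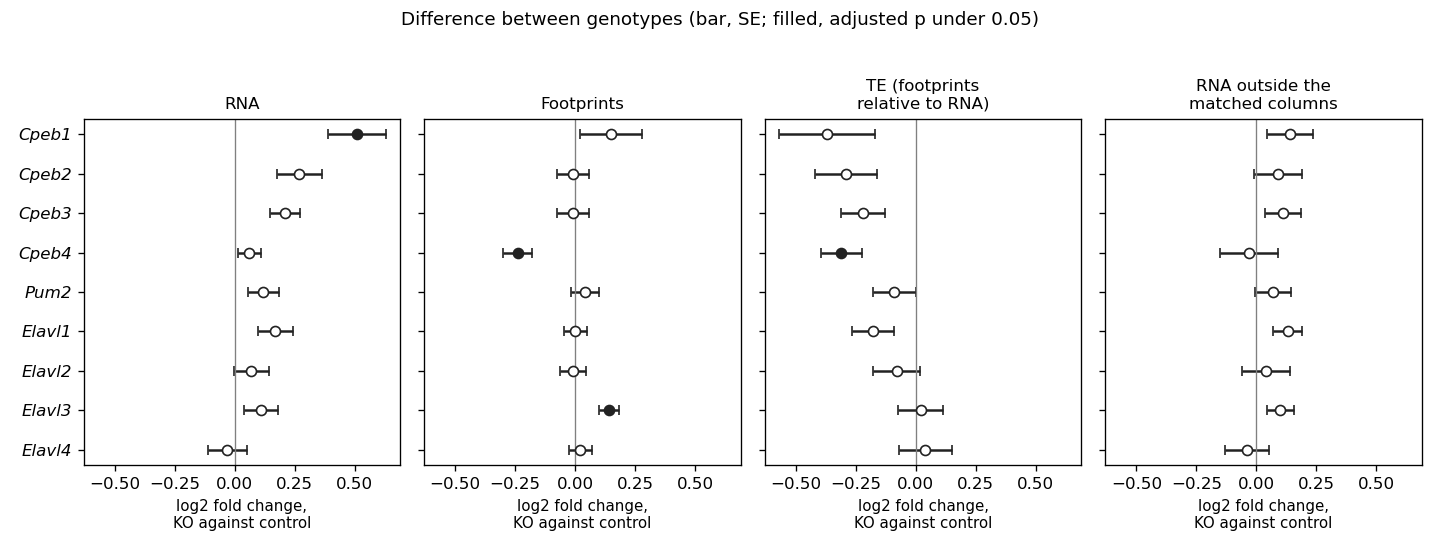
Log2 fold change of KO against control (x axes) for each gene in RNA, footprints, TE and the RNA outside the matched columns, with the SE as a bar and filled points for an adjusted p under 0.05. Filled points are Cpeb1 in RNA (0.51), Cpeb4 (-0.24) and Elavl3 (0.14) in footprints, and Cpeb4 in TE (-0.31).

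In control cortex the 9 genes differed widely in how many footprints they had for their RNA, a ratio in which the length counted cancels if both assays count the same region. Pum2 was lowest at 0.305, at percentile 6.4 of the 12145 genes tested in both assays, whose median was 0.913. Cpeb4 followed at 0.691, Cpeb1 at 0.94, Cpeb2 at 1.43 and Cpeb3 at 1.5. The Elav-like genes were highest, with Elavl4 at 1.73, Elavl3 at 1.95, Elavl2 at 2.06 and Elavl1 at 3.05, the last at percentile 98.3. The ranges over the control libraries overlapped between neighbours from Cpeb2 up to Elavl2, and the other neighbours in this order did not overlap.

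This order depended on the RNA column used. Each RNA library had a column without suffix, here called the matched column because it has values for the genes with footprints, and a column marked exon with a larger total, and the regions they count are not given in the sources used here. Against the exon columns, Pum2 remained lowest at 0.267 (percentile 6.2). The 4 Elav-like genes then lay between 0.977 and 1.38 and Elavl1 at 1.07 (percentile 57.2), while Cpeb4 rose to 1.16 (percentile 61.9) and Cpeb1, Cpeb2 and Cpeb3 lay between 0.741 and 0.793. The low value of Pum2 was thus seen with both columns. Of the Elav-like genes, Elavl2 was highest against the exon columns, at percentile 71.6, compared with 93.5 for the matched one.

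**Figure D3:**
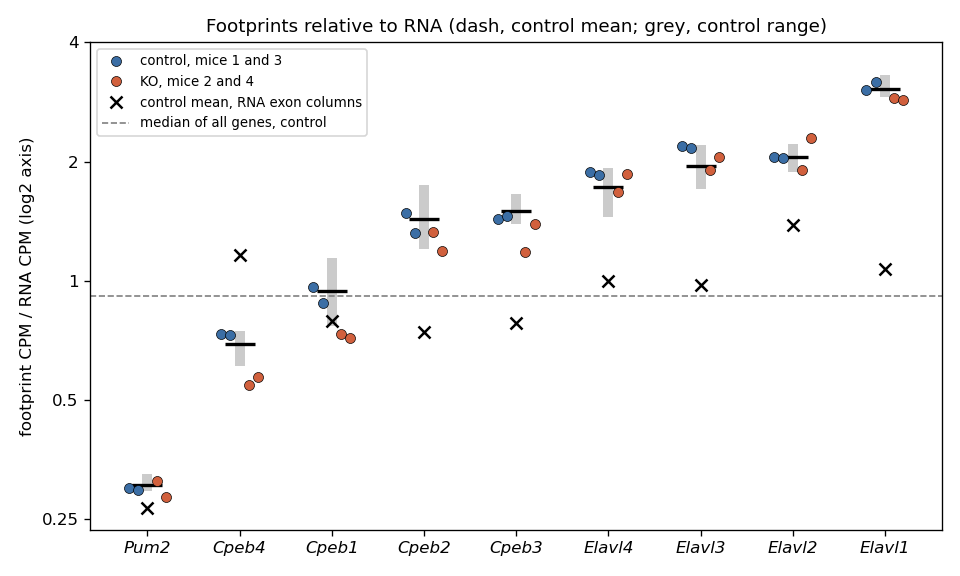
Footprint CPM divided by RNA CPM (y axis, log2 scale) for each gene, with a dash and a grey bar for the mean and range over control libraries, points for the 4 mice in both assays, and crosses for the control mean against the RNA exon columns. Pum2 is lowest on both measures (0.305 and 0.267), and Elavl1 moves from 3.05 to 1.07 between them.

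The share of the exon count held by the matched column is, up to library scaling, what separates the 2 ratios, so it restates that shift gene by gene. In controls it was 93 ± 0.849% for Cpeb4 (SD, n = 4, percentile 96.3) and 19.6 ± 1.57% for Elavl1 (SD, n = 4, percentile 3.9), against a median of 61% over 11804 genes. The remaining 7 genes lay between 27.9% (Elavl3) and 49% (Pum2), all below that median. For Cpeb1 the share was 46.4, 45.1, 43.8 and 52.5% in control mice 1, 3, 6 and 8 and 59.5, 57.7, 42.1 and 55.8% in KO mice 2, 4, 5 and 7. KO mouse 5 was again the lowest of the KO libraries and below every control. No gene of the 9 separated the genotypes by this share, where 4.19% of all genes did so upward and 1.76% downward.

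**Figure D4:**
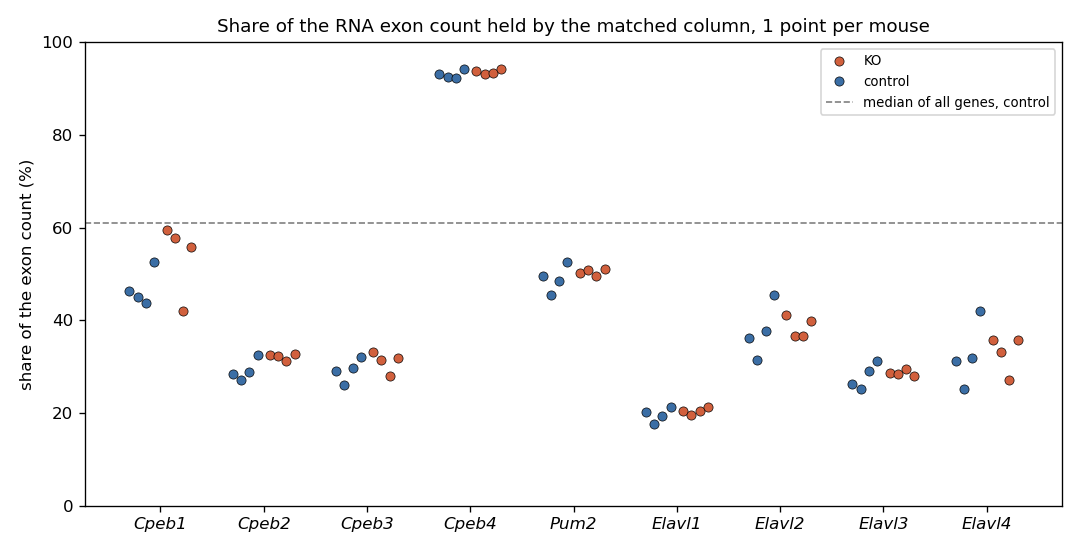
Share of the RNA exon count held by the matched column (y axis, percent) for each gene, with 1 point per mouse and the control median of all genes as a dashed line. Cpeb4 lies near the top (93%) and Elavl1 lowest (19.6%), and control and KO points overlap for every gene.

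RNA counted in the exon columns and not in the matched columns gave a further reading of the same libraries. None of the 9 genes passed the test there with edgeR, where 2.62% of 11983 genes were called (1.26% higher and 1.36% lower), and DESeq2 gave 0 calls as well. Only Elavl1 had an unadjusted p under 0.05, with 270 ± 5.48 CPM (SD, n = 4) in control and 296 ± 16.1 CPM (SD, n = 4) in KO mice (log2 fold change 0.13 ± 0.060 SE, edgeR adjusted p = 0.269). Elavl1 and Elavl3 did not overlap between genotypes, both higher in KO, as for 5.51% of all genes, with 5.47% wholly lower. For Cpeb1 the log2 fold change was 0.14 ± 0.097 (SE, edgeR adjusted p = 0.498), and its groups overlapped.

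The enzymes and partners through which these proteins act were read from 5 lists of genes. In RNA 7.41%, in footprints 25.5% and in TE 7.81% of all genes were called, the shares against which the main counts of each list stand. Over the alternatives, calls over all genes ranged from 36 (close libraries summed) to 3273 (mice 1 to 4) in RNA. They ranged from 1684 (the fit over 14 libraries) to 3447 (plain library sizes) in footprints. In TE they ranged from 419 (without mouse 2) to 1903 (limma). List counts under an alternative stand against these, so their changes need not be particular to a list. Genes are described below only for calls that were kept whichever 1 mouse was left out, which was so for 7 of 15 list calls that the naming rule allows in RNA, 22 of 32 in footprints and 5 of 14 in TE.

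Among 25 genes of cytoplasmic polyadenylation, 2 were called higher and 1 lower in RNA (median log2 fold change 0.05), and of 24 tested in footprints 3 were higher and 3 lower (median 0.06). In TE, none was higher and 2 were lower of 24 (median -0.08), with 0 to 3 called over the alternatives and 0 without mouse 2 or 3. The RNA count of 3 fell to 1 without mouse 2, 6 or 7 and ranged from 0 to 6 over all alternatives, and the footprint count of 6 ranged from 4 to 7. Tob1, an antiproliferative protein that links RNA-binding proteins to the CCR4-NOT deadenylase, had more footprints in KO cortex, by a log2 fold change of 0.40 ± 0.075 (SE, edgeR adjusted p = 1.04e-05). Fip1l1, a subunit of the cleavage and polyadenylation factor CPSF, had fewer (-0.36 ± 0.058 SE, edgeR adjusted p = 3.77e-07). Its RNA was also lower (-0.28 ± 0.056 SE, edgeR adjusted p = 0.010), but this call was lost with the close libraries summed (log2 fold change -0.29, edgeR adjusted p = 0.26). The CPSF subunits Cpsf1 (-0.29) and Cpsf2 (-0.25) were lower in footprints.

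Of 20 tested genes of the CCR4-NOT complex and Pumilio partners, 3 were called higher and none lower in RNA (median 0.02), and 4 were higher and 5 lower in footprints (median 0.02). In TE, 1 was higher and 2 were lower of 20 (median 0.02). Over the alternatives, the RNA count ranged from 1 to 4, the footprint count from 5 to 9 and the TE count from 0 to 4, with 0 in TE without any 1 of mice 2, 3 or 4. Btg2, an immediate early gene whose product activates CCR4-NOT, had RNA at 6.52 ± 1.46 CPM in control and 17.6 ± 3.9 CPM in KO cortex (each SD, n = 4), which differed by 1.43 ± 0.18 on the log2 scale (SE, edgeR adjusted p = 0.000541, and 0.033 with the close libraries summed). Its footprints were also higher (1.89 ± 0.16 SE, edgeR adjusted p = 1.23e-17), as were those of the related Btg1 (0.71) and of the deadenylase subunit Cnot7 (0.47).

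Other proteins that bind AU-rich or U-rich elements gave 2 genes higher and none lower of 23 in RNA (median 0.14), and 2 higher and 6 lower of 22 in footprints (median of all 22, -0.003). The RNA count was 0 without any 1 of mice 1, 2, 3, 4, 6 or 7 and 6 without KO mouse 5, and the footprint count of 8 fell to 3 in a single fit over all 14 libraries. In TE, none was higher and 3 were lower of 22 (median -0.17), with 0 to 5 called over the alternatives and 0 without mouse 2 or 4. Celf2, a splicing and stability regulator, was higher in footprints (0.22 ± 0.033 SE, edgeR adjusted p = 9.21e-08). Khsrp, which promotes decay of AU-rich mRNAs, was lower (-0.35 ± 0.050 SE, edgeR adjusted p = 1.34e-08). Hnrnpd (AUF1), which binds the same kind of element, was lower (-0.36 ± 0.036 SE, edgeR adjusted p = 1.97e-14), and in the fit over 14 libraries its value was -0.37 without passing the test (edgeR adjusted p = 0.173).

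Neuronal mRNA transport and translation regulators gave 4 genes higher and none lower of 25 in RNA (median -0.01), and none higher and 10 lower of 24 in footprints (median -0.13), where 13.6% of all genes were called lower. In TE, none was higher and 5 were lower of 24 (median -0.17), where 4.41% of all genes were called lower, with 3 to 9 called over the alternatives and 3 without mouse 2. In the fit over 14 libraries 1 of these 24 genes was called, and over the alternatives in RNA 1 to 11. The granule protein Pura had fewer footprints (-0.29 ± 0.046 SE, edgeR adjusted p = 1.62e-07). Khdrbs1 (Sam68) had higher RNA (0.75 ± 0.085 SE, edgeR adjusted p = 0.000338, and 0.0312 with the close libraries summed) and lower TE (-0.84 ± 0.11 SE, edgeR adjusted p = 6.35e-05). Rbfox3 also had higher RNA (0.61) and lower TE (-0.82), and its RNA call was lost with the close libraries summed (log2 fold change 0.50, edgeR adjusted p = 0.237).

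Of mRNAs described as targets of these proteins, 1 was called higher and 2 lower of 27 in RNA (median 0.04), and 6 higher and 7 lower of 26 in footprints (median -0.02). The RNA count was 5 without KO mouse 5 or control mouse 8 and 13 in mice 1 to 4. All-gene RNA calls were 1469, 1763 and 3273 in these settings, against 1001 in the main fit. The footprint count of 13 fell to 7 with DESeq2 and to 3 in the fit over 14 libraries. All-gene footprint calls fell from 3102 to 1821 and 1684 there. In TE, 1 was higher and 1 lower of 26 (median -0.02), with 2 to 4 called over the alternatives. Camk2a, a classic CPEB target and also 1 of the excitatory neuron markers above, had RNA at 467 ± 62 CPM in control and 786 ± 111 CPM in KO cortex (each SD, n = 4). Its RNA log2 fold change was 0.75 ± 0.099 (SE, edgeR adjusted p = 0.00076, and 0.0312 with the close libraries summed), and its TE fell by 0.90 (SE 0.12, edgeR adjusted p = 6.09e-05). Its footprints were slightly lower (-0.14 ± 0.019 SE, edgeR adjusted p = 1.71e-09), a call lost in the fit over 14 libraries (edgeR adjusted p = 0.295). Gap43, a growth cone protein whose mRNA is stabilised by HuD, had lower RNA (-0.50 ± 0.057 SE, edgeR adjusted p = 0.000338, and 0.0498 with the close libraries summed) and higher TE (0.37 ± 0.076 SE, edgeR adjusted p = 0.00325). Gap43 footprints were also lower, by less than its RNA (-0.11 ± 0.035 SE, edgeR adjusted p = 0.00919), a call outside the naming rule. Footprints of Ptgs2 (0.78) were higher, and those of Map2 (-0.36) and Grin2b (-0.30) were lower.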

How the data were processed

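The samples were RNA-seq and ribosome profiling libraries of mouse cortex. The authors deposited 1 table of whole-number counts per gene, with no normalization. Per the submitters' processing notes, the tools named are Bowtie2, STAR 2.5 and Subread 1.4.6 with featureCounts, and the builds mm9 and mm10. Their roles, the annotation, the strand setting and the regions counted are not given in the sources used here. The columns without suffix were used for RNA since footprints have values for the same genes. Footprint values were missing for 2849 genes. For RNA outside the matched columns, the 2 columns were subtracted and 93 genes with a negative result left out. Date-like names stood in place of 27 gene symbols.

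Counts were tested between genotypes with edgeR 4.0.16 (R 4.3.3): quasi-likelihood F test, TMM, filterByExpr at a minimum count of 10, no covariate, two-sided, adjusted over all genes at a threshold of 0.05. TE was the interaction of genotype and assay. SEs came from the F statistic, and CPM used TMM factors. Alternatives were DESeq2 1.42.0, limma 3.58.1 (voom with library weights), other size factors, no filter, blocks, exon columns, subsets of mice, the close RNA libraries summed (KO mice 2, 4 and 7, and control mice 1 and 3) and leaving out each mouse. Mice 1 to 4 were in both assays by their labels, which pairs those libraries. Their RNA and footprint deviations correlated at 0.003, 0.011, 0.035 and -0.012. The labels give each mouse its own number. Some libraries of a genotype lay near counting noise, and the p-values measure the spread between these libraries only, which may be technical. The test script was tested on simulated data.

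The 9 genes and all lists were chosen with earlier results of these data known. Named genes were the 9, Fmr1, up to 4 called genes with the largest rise and up to 4 with the largest fall per list and comparison, and the gene most like each of the 9. Some genes that this rule allows are not reported here. The share of the exon count, the overlap of ratios in mice 1 to 4, and naming from the lists only calls kept without any 1 mouse, were added after values were seen. Promoters came from RefSeq, which gave windows for 8 of the 9 genes.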

Additional observations from a re-analysis of the deposited data

Results flagged for a closer look

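In groups of 4 RNA libraries, a single library can lie far from the other 3. A gap to the nearest other library beyond Dixon's critical share of the group's range marked such a library, and chance gives about 1 in 20 groups, or 1.8 of the 36 examined here. This was found in 5 groups, which share the same 8 libraries. Over all genes tested, the share with such a library was 4.52% in control and 8.98% in KO RNA, and in the RNA outside the matched columns 4.96% and 9.29%. KO mouse 5 alone gave 6.89% and 7.06% in the KO groups. Cpeb1 RNA in KO mouse 5 was at 22.9 CPM, below 32.8 to 34.5 CPM in the other KO mice, with a gap of 0.85. Cpeb4 RNA in KO mouse 7 was at 164 CPM, against 172 to 173 CPM. Elavl2 RNA in control mouse 8 was at 68.9 CPM, against 63 to 63.6 CPM. In the RNA outside the matched columns, KO mouse 5 was highest for Cpeb3, at 202 CPM against 175 to 178 CPM, and for Pum2, at 511 CPM against 420 to 433 CPM. KO mouse 5 thus accounts for 3 of the 5.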

How the results depend on the processing

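The footprint call of Cpeb4 was kept in all 12 alternatives run, with log2 fold changes between -0.32 and -0.18 and edgeR or DESeq2 adjusted p between 2.3e-05 and 0.023. None of the 12 summed close footprint libraries, although pairs of 1 genotype were at 1.15 to 1.42 in chi-square per degree of freedom. Summing close libraries cut RNA calls over all genes from 1001 to 36, and its effect on footprint calls was not tested. Calls over all genes also differed between settings, and they are given in brackets after each count of the 9. In RNA 1 of the 9 genes was called (1001 of 13507). The number was 2 with DESeq2 (1144 of 13507), 0 with the close RNA libraries summed (36 of 13669) and 0 in mice 5 to 8 (88 of 13488). It was 3 in mice 1 to 4 (3273 of 13591), and 0 to 2 when 1 mouse was left out (356 to 1763 calls). In footprints 2 were called (3102), and 1 with DESeq2 (1821), 1 in a single fit over 14 libraries (1684), and 1 to 2 when 1 mouse was left out (2558 to 2855). In TE 1 was called (949), and 0 with plain library sizes (1084), 0 with the close RNA libraries summed (579), and 0 to 1 when 1 mouse was left out (419 to 1289). With voom 2 were called (1903), with Cpeb1 added at -0.49 (limma adjusted p = 0.0337). With the mouse number as a replicate block, a paired fit, 1 gene (Cpeb4) was called over all 14 libraries and 1 in mice 1 to 4. No other call among the 9 changed. Both blocked fits rest on mice 1 to 4, the only mice in both assays. RNA outside the matched columns gave 0 calls in all 14 alternatives. Plain library sizes moved the share of footprint calls over all genes that were higher in KO from 46.7% to 66.3%, that of TE calls from 43.5% to 68.2%, and that of calls outside the matched columns from 48.1% to 36.8%. No called value of the 9 genes changed sign. The cause of these changes was not tested, except that summing libraries and leaving mice out reduces the number of samples. Cpeb1 footprints, at 82 to 129 counts per library, have the widest error of the 9.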

Other observations

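For each of the 9 genes, the gene with the most similar pattern over the 14 libraries was found among 8923 genes, on log2(CPM + 1) with each assay centred on its mean. The 14 points share libraries and title prefixes, and mice 1 to 4 give 2 points each, so these are descriptions. Pearson's r was 0.94 for Cpeb1 with Eif2b2, a subunit of the translation initiation factor eIF2B. It was 0.96 for Pum2 with Epm2aip1, and 23 genes were above 0.9 with Pum2. Elavl3 was nearest to Fth1, the ferritin heavy chain, at 0.93, and Elavl4 to Praf2 at 0.92. Cpeb4 was nearest to Bcl9l, a Wnt pathway coactivator, at 0.91. Cpeb2 was nearest to Pcca, a mitochondrial carboxylase subunit, at 0.92, Cpeb3 to the transcription factor partner Arnt at 0.90, and Elavl2 to the adhesion protein Mdga2 at 0.90. Elavl1 was nearest to the neuronal pentraxin Nptx1 at 0.94, but in the 6 footprint libraries alone the value was 0.14, against 0.97 in the 8 RNA libraries.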
